A study of Mus musculus with 8 samples.

Results

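The protein kinase C family was described in 8 genes: Prkca, Prkcb, Prkcd, Prkce, Prkch, Prkcq, Prkci and Prkcz. A probe set counted for a member where the platform annotation named that gene and no other, which gave 20 of the 34945 single-gene probe sets and 8 of the 18193 genes. Each gene is represented by its brightest probe set, by the mean of all 8 arrays, and the others are given beside it. Prkcq had 1 probe set and the other 7 members had several.

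RNA was measured on 1-colour oligonucleotide arrays. All samples came from the small intestine, and the donors were BALB/c mice at 6 to 9 days of age. ICC-DMP were 3 samples of isolated interstitial cells of Cajal of the deep muscular plexus. ICC-MY were 3 samples of isolated interstitial cells of Cajal of the myenteric plexus. The tunica muscularis was 2 samples of the whole muscle coat, which itself holds both kinds of interstitial cell besides smooth muscle, neurons, glia, resident macrophages and mesothelium. No label names a treatment or an allele for any of the 3 groups. The sources used here do not say how the cells were isolated or whether animals were pooled. Each array's target was made from about 50 ng of total RNA by 2 rounds of amplification, and the samples are titled as biological replicates without saying whether each came from separate animals. The p-values therefore measure the spread between these samples, and the number of arrays limits their precision.

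Interstitial cells of Cajal are the pacemaker and neurotransmission cells of the gut. Those of the myenteric plexus generate slow waves, and those of the deep muscular plexus lie among nerve endings and relay their signals. Protein kinase C enzymes phosphorylate serine and threonine residues after phospholipase C has split a membrane phospholipid into diacylglycerol and inositol trisphosphate. The conventional enzymes (alpha, from Prkca, and beta, from Prkcb) need both calcium and diacylglycerol. The calcium-independent enzymes (delta, epsilon, eta and theta, from Prkcd, Prkce, Prkch and Prkcq) need diacylglycerol alone, and the atypical enzymes (iota and zeta, from Prkci and Prkcz) need neither and work with cell polarity proteins. In smooth muscle, protein kinase C raises the calcium sensitivity of contraction. Protein kinase C theta is best known from T cells and is used as a marker of interstitial cells of Cajal. Part of that use may rest on profiles of these same cells, so its level in them is no independent evidence of what they are.

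The promoter windows of the 3 members with the largest differences between groups are printed here, since the results turn on them. They come from RefSeq, build GRCm38.p6, and run from 250 bases before to 50 bases after the annotated start, read 5′ to 3′ on the gene's strand. Capitals mark the GC box GGGCGG or its reverse complement. Of the 8 members, 6 had a window in the table used, and Prkce and Prkch had none.
Prkcq, chr2:11172132-11172431, plus strand: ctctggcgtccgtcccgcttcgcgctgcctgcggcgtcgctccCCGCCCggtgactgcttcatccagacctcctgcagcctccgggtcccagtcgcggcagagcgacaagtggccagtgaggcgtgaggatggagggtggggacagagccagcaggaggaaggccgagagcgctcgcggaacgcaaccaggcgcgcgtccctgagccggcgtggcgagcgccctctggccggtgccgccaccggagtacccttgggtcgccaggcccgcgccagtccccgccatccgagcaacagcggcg
Prkca, chr11:108343839-108344138, minus strand: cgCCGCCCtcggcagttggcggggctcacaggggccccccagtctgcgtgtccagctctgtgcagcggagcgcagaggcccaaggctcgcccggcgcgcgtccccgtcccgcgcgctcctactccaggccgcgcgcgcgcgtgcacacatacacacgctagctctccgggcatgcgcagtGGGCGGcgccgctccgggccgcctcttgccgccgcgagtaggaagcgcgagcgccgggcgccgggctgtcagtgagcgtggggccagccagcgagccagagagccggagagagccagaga
Prkcb, chr7:122288875-122289174, plus strand: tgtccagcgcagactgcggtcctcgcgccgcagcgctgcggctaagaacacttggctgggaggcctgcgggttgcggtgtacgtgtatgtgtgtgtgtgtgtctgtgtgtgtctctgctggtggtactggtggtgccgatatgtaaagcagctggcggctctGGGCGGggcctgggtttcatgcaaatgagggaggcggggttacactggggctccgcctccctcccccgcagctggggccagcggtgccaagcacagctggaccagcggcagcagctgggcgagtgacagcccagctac
The Prkcq window held 37 CpG dinucleotides at 73.0% GC, the Prkca window 42 at 75.3% GC, and the Prkcb window 19 at 65.3% GC, where the median over the 32851 windows of the table was 7. The GC box was found once in the windows of Prkcq and Prkcb and in 2 places in that of Prkca. It was present, on either strand, in 35.7% of all windows. The ETS motif CCGGAAGT (in 3.89% of all windows), the AP-1 motif TGANTCA (7.81%), the CRE motif TGACGTCA (1.79%), the E-box CACGTG (7.15%), the TATA motif TATAAA (13.6%) and the CArG box (1.63%) were searched on both strands. None of these 6 had a match in any of these 3 windows, which says only that these letters are not in these windows. The shorter ETS core GGAAG, which lies within some longer ETS motifs, was in the windows of Prkcq and Prkca, not in that of Prkcb, and in 71.4% of all windows.

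Values are log2 expression values as deposited. A difference of 1 is a 2-fold difference, and a value belongs to its own probe set, so values of different genes are not set against each other. The medians of the arrays lay between 4.18 and 4.31, and the files used here carry no detection calls. Differences were tested with limma over all 18193 genes and called at a Benjamini-Hochberg adjusted p under 0.05. In a whole tissue, fewer cells of a type and less RNA per cell cannot be told apart. The narrowest spread of values was on ICC-MY replicate 1 (SD 1.98) and on tunica muscularis replicate 1 (SD 2.06), where the remaining arrays had an SD of 2.22 to 2.32. The third replicate of each ICC class had the widest gap between the 3′ and 5′ actin control probe sets (4.66 in ICC-DMP and 4.28 in ICC-MY, against 2.53 to 3.53 on the other arrays). As a check of the labels, Kit, the receptor that defines interstitial cells of Cajal, read 11.07, 11.34 and 10.84 in ICC-DMP and 10.81, 12.42 and 11.99 in ICC-MY, against 7.20 and 8.43 in tunica muscularis. Relative to tissue, 4 of 9 markers of these cells were higher in ICC-DMP and 7 in ICC-MY, where 3.72% and 4.05% of all genes were higher. Between the ICC classes, 4 of the 9 were lower and 1 higher in ICC-DMP than in ICC-MY. The list was chosen with earlier results of these data known, so these counts are no independent check. Both comparisons with tissue share the same 2 tissue arrays, which differed in intestinal epithelium markers. Of 6 such markers 2 were lower than in tissue in each ICC class. Their mean level was 3.71 to 3.85 in ICC-DMP, 3.61 to 3.98 in ICC-MY and 5.59 to 7.04 in tissue. Tissue replicate 2 was above replicate 1 for Fabp1, Fabp2 (11.38 against 7.08), Vil1 and Krt20, and below it for Epcam and Cdx1. The part of epithelium in the comparisons with tissue was not tested.

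Between the 2 classes of interstitial cell, 2 of the 8 members changed, and they changed in opposite directions. Prkcq was lower and Prkca higher in ICC-DMP than in ICC-MY. These 2 of 8 compare with 8.67% of all genes called in that comparison, 5.36% higher and 3.30% lower. Against tunica muscularis, 2 members were lower in ICC-DMP (Prkcb and Prkcz) and none was higher, where 11.0% of all genes were called (3.72% higher and 7.32% lower). At an unadjusted p under 0.05, limma put 0 members higher and 4 lower there, and 7.98% of all genes higher and 13.7% lower. In ICC-MY, 1 member was higher than in tissue (Prkcq) and 3 were lower (Prkca, Prkcb and Prkci), where 13.8% of all genes were called, 4.05% higher and 9.78% lower. At the unadjusted threshold 1 member was higher and 5 lower there, and 8.28% of all genes higher and 16.3% lower. For ICC-DMP minus ICC-MY it put 3 members higher and 2 lower, and 10.8% of all genes higher and 7.66% lower. The median difference over the 8 members was -0.46 for ICC-DMP minus tunica muscularis, -0.76 for ICC-MY minus tunica muscularis and -0.11 for ICC-DMP minus ICC-MY. Over all genes it was -0.04, -0.02 and -0.02. The member counts and medians use the main probe sets only. Prkcd was below tissue on its main probe set, but its other one, 1442256_at, was called higher in ICC-DMP than in tissue (1.43, limma adjusted p = 0.0216 over all single-gene probe sets). Groups without overlapping arrays were seen in ICC-DMP against tissue for 4 members, all lower (38.5% of all genes, 15.5% higher and 23.1% lower). In ICC-MY against tissue they were seen for 6 members, 1 higher and 5 lower (34.2% of all genes, 13.4% higher and 20.7% lower). Between ICC-DMP and ICC-MY they were seen for 5 members, 3 higher and 2 lower (25.6% of all genes, 13.9% higher and 11.7% lower). Tested probe set by probe set, 11.4% of the 34945 single-gene probe sets were called in ICC-DMP against tissue (5.28% higher, 6.10% lower), 12.7% in ICC-MY against tissue (4.88% higher, 7.86% lower) and 7.55% between the ICC classes (4.80% higher, 2.75% lower), and the further probe sets of the members are given against these.

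**Figure D1:**
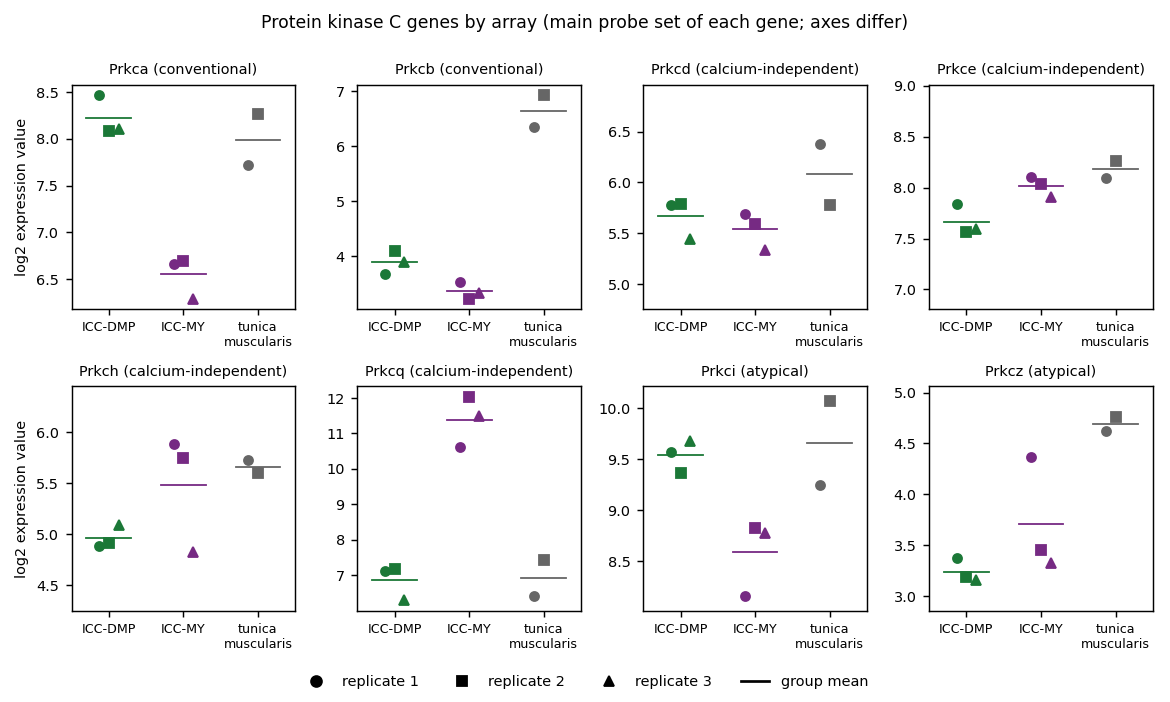
Log2 expression value (vertical axis, a separate scale in each panel) of the main probe set of each of the 8 protein kinase C genes, in ICC-DMP, ICC-MY and tunica muscularis. Each symbol is 1 array, its shape gives the replicate number and the line is the group mean. Prkcq lies between 10.61 and 12.04 on the ICC-MY arrays and at or below 7.43 on all others, Prkca is lowest on the ICC-MY arrays, and Prkcb is highest on the tissue arrays.

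Among the conventional enzymes, Prkca, whose protein is the calcium-dependent form common in smooth muscle, read 8.47, 8.08 and 8.11 in ICC-DMP, 6.66, 6.69 and 6.29 in ICC-MY, and 7.72 and 8.27 in tunica muscularis. All 3 ICC-MY arrays lay below every other array, while the ICC-DMP and tissue arrays overlapped. Prkca was higher in ICC-DMP (8.22 ± 0.22, SD, n = 3) than in ICC-MY (6.55 ± 0.22, n = 3) by 1.67 on the log2 scale (SE 0.20, 3.19-fold, limma adjusted p = 0.0012). ICC-MY was also lower than tissue (7.99 ± 0.39, n = 2), with a difference of -1.45 (SE 0.23, 2.73-fold lower, adjusted p = 0.00335). ICC-DMP and tissue did not pass the test (0.23, SE 0.23, 95% interval -0.29 to 0.75, adjusted p = 0.696). Both calls held in all 18 alternatives.

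A further Prkca probe set, 1450945_at, gave 6.31, 5.90 and 5.72 in ICC-DMP, 4.29, 4.04 and 4.02 in ICC-MY, and 5.88 and 5.60 in tissue. It showed the same order of groups, with 1.86 for ICC-DMP minus ICC-MY (SE 0.18, adjusted p = 0.000481 over all single-gene probe sets) and -1.62 for ICC-MY minus tissue (SE 0.20, adjusted p = 0.00119). The third, 1427562_a_at, averaged 3.41 in ICC-DMP, 3.12 in ICC-MY and 3.33 in tissue and passed in no comparison. Smooth muscle markers moved with Prkca. Of 8 such markers 6 were above ICC-MY in ICC-DMP and 7 were below tissue in ICC-MY, and their mean level ran from 9.99 to 10.29 over the ICC-DMP arrays, 7.24 to 8.06 over the ICC-MY arrays and 10.67 to 11.61 over the tissue arrays. In ICC-DMP against tissue 4 of the 8 were lower. Their part in the Prkca result was not tested.

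Prkcb, whose protein is prominent in leukocytes and neurons, read 3.68, 4.10 and 3.89 in ICC-DMP, 3.54, 3.23 and 3.34 in ICC-MY, and 6.34 and 6.93 in tunica muscularis. Every ICC array lay below the array medians of 4.18 to 4.31, and both tissue arrays lay above them. The gene was lower than in tissue in ICC-DMP (difference -2.75, SE 0.22, adjusted p = 0.000108) and in ICC-MY (difference -3.27, SE 0.22, adjusted p = 3.88e-05). No fold is given, since the ICC levels were not shown to be above background. With the mean of its 3 probe sets in place of the brightest, the differences were -1.42 (adjusted p = 0.000168) in ICC-DMP and -1.59 (adjusted p = 8.66e-05) in ICC-MY. The ICC-DMP arrays all lay above the ICC-MY arrays, and that difference did not pass (0.52, SE 0.20, adjusted p = 0.186). Quantile normalization brought it past the threshold (0.56, adjusted p = 0.0417), as did leaving out the 2 arrays of narrow range (0.61, adjusted p = 0.0427).

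A further Prkcb probe set, 1423478_at, read 3.63, 3.52 and 3.34 in ICC-DMP, 3.58, 3.31 and 3.40 in ICC-MY, and 5.03 and 4.63 in tissue. It too was lower than in tissue in ICC-DMP (-1.33, SE 0.17, adjusted p = 0.00157) and in ICC-MY (-1.40, SE 0.17, adjusted p = 0.00115), and 1443144_at, at means of 2.60 in ICC-DMP, 2.70 in ICC-MY and 2.79 in tissue, did not pass. Markers of other cells of the muscle coat fell with Prkcb in both comparisons with tissue. Of 10 enteric neuron markers 9 were lower in ICC-DMP and 8 in ICC-MY, with a mean level of 3.93 to 4.02 in ICC-DMP, 4.24 on every ICC-MY array and 7.44 to 7.79 in tissue. Of 8 macrophage markers 7 were lower in each ICC class, at 4.33 to 4.40 in ICC-DMP, 4.44 to 4.60 in ICC-MY and 6.38 to 6.88 in tissue. All 4 mesothelium markers were lower, at 3.47 to 3.61 in ICC-DMP, 3.17 to 3.35 in ICC-MY and 9.31 to 9.70 in tissue. None of 3 measured B cell markers passed in either comparison or at an unadjusted p under 0.05 (0 of 3), with mean levels of 3.21 to 3.50 in ICC-DMP, 3.32 to 3.52 in ICC-MY and 3.24 to 3.44 in tissue. The part of these cells in the Prkcb result was not tested.

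Among the calcium-independent enzymes, Prkcq stood out by the size of its differences. It read 7.11, 7.18 and 6.29 in ICC-DMP, 10.61, 12.04 and 11.50 in ICC-MY, and 6.42 and 7.43 in tunica muscularis. The lowest ICC-MY array was more than 3 log2 units above the highest array of either other group, while the ICC-DMP and tissue arrays overlapped. Prkcq was lower in ICC-DMP (6.86 ± 0.50, n = 3) than in ICC-MY (11.38 ± 0.72, n = 3), with a difference of -4.52 (SE 0.42, 22.9-fold lower, adjusted p = 0.000316). ICC-MY was higher than tissue (6.92 ± 0.71, n = 2) by 4.46 (SE 0.47, 22.0-fold, adjusted p = 0.000446). ICC-DMP minus tissue was -0.06 (SE 0.47, 95% interval -1.15 to 1.03, adjusted p = 0.975), an interval that leaves room for a 2-fold difference either way. Over the 18 alternatives ICC-MY minus tissue ran from 3.95 to 4.96 and ICC-DMP minus ICC-MY from -4.91 to -4.18, always past the threshold. With 1 probe set, no second reading of Prkcq was available.

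T cells are the textbook source of protein kinase C theta, and their markers are given beside it. Of 8 T cell markers 0 passed in any of the 3 comparisons by limma, and 0 at an unadjusted p under 0.05. Their mean level lay between 3.90 and 3.99 in ICC-DMP, 3.93 and 4.48 in ICC-MY, and 3.64 and 4.31 in tissue. The CD3 delta chain gene Cd3d read 3.38, 3.22 and 3.35 in ICC-DMP, 3.35, 3.03 and 3.47 in ICC-MY, and 3.01 and 3.24 in tissue. Its groups overlapped in all 3 comparisons. Every ICC-MY array lay above both tissue arrays for Cd2 (difference 0.19, SE 0.16, adjusted p = 0.582) and Cd5 (0.16, SE 0.15, adjusted p = 0.627). Among the partners of theta, the T cell kinase gene Zap70 read 6.74, 6.88 and 6.86 in ICC-DMP, 7.04, 6.94 and 6.95 in ICC-MY, and 6.57 and 6.38 in tissue. All 3 ICC-MY arrays were above every other array, and neither ICC-MY minus tissue (0.50, SE 0.14, adjusted p = 0.0504) nor ICC-DMP minus ICC-MY (-0.15, SE 0.13, adjusted p = 0.646) passed. Icos, a costimulatory receptor gene of T cells, did pass, with 4.97 for ICC-MY minus tissue (SE 0.42, adjusted p = 0.000121). The part of T cells in the Prkcq result was not tested.

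Prkcd, a widely expressed enzyme with roles in apoptosis, had 2 probe sets that ran in opposite directions against tissue. The main one, 1422847_a_at, read 5.78, 5.79 and 5.45 in ICC-DMP, 5.69, 5.59 and 5.34 in ICC-MY, and 6.38 and 5.78 in tissue. No comparison passed on it, at -0.41 for ICC-DMP minus tissue (SE 0.22, adjusted p = 0.361), -0.54 for ICC-MY minus tissue (SE 0.22, adjusted p = 0.17) and 0.13 between the ICC classes (SE 0.20, 95% interval -0.32 to 0.59, adjusted p = 0.827). The other, 1442256_at, read 5.10, 5.23 and 6.18 in ICC-DMP, 4.91, 4.52 and 4.96 in ICC-MY, and 4.01 and 4.14 in tissue. All ICC arrays lay above both tissue arrays there, and ICC-DMP minus tissue passed (1.43, SE 0.31, adjusted p = 0.0216), while ICC-MY minus tissue did not (0.72, SE 0.31, adjusted p = 0.209). Between the ICC classes its difference had the sign of the main probe set and did not pass (0.70, SE 0.28, adjusted p = 0.232). What each probe set detects was not tested, so no direction against tissue is given for Prkcd.

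Prkce and Prkch showed small differences. Prkce, whose protein takes part in neuronal and cardiac signalling, read 7.84, 7.56 and 7.59 in ICC-DMP, 8.10, 8.04 and 7.91 in ICC-MY, and 8.09 and 8.26 in tissue. The ICC-DMP arrays were the lowest, below all ICC-MY and tissue arrays, but neither ICC-DMP minus tissue (-0.51, SE 0.16, 95% interval -0.87 to -0.15, adjusted p = 0.0796) nor ICC-DMP minus ICC-MY (-0.35, SE 0.14, adjusted p = 0.219) passed over all genes. ICC-MY minus tissue was -0.16 (SE 0.16, 95% interval -0.52 to 0.20, adjusted p = 0.641). Its 3 further probe sets, with group means between 2.11 and 4.57, passed in no comparison.

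Prkch, an enzyme of epithelia, endothelium and immune cells, read 4.88, 4.91 and 5.09 in ICC-DMP, 5.88, 5.75 and 4.82 in ICC-MY, and 5.73 and 5.60 in tissue. ICC-MY replicate 3 sat with the ICC-DMP arrays, and the other 2 ICC-MY arrays sat above the tissue arrays. No comparison passed, at -0.71 for ICC-DMP minus tissue (SE 0.30, adjusted p = 0.21), -0.18 for ICC-MY minus tissue (SE 0.30, adjusted p = 0.818) and -0.53 between the ICC classes (SE 0.26, adjusted p = 0.361). The calls changed when this 1 array, the ICC-MY array with the widest actin gap (4.28), was left out. ICC-DMP replicate 3, with a gap of 4.66, had the highest Prkch value of its group (5.09). Of 5 endothelium markers 2 were below tissue in ICC-DMP and 1 in ICC-MY. Their mean level was 3.52 to 3.68 in ICC-DMP, 3.81 to 4.72 in ICC-MY and 4.63 to 4.97 in tissue. Within ICC-MY, replicate 3 was lowest for Cdh5 (5.19, 5.38 and 4.17), Kdr, Tek and Pecam1, but not for Vwf. The part of the actin gap or of endothelium in the Prkch result was not tested. Without ICC-MY replicate 3, Prkch was lower in ICC-DMP than in ICC-MY (-0.86, adjusted p = 0.0164) and than in tissue (-0.71, adjusted p = 0.0277), and ICC-MY minus tissue turned to 0.15 (adjusted p = 0.716). That array is no part of the ICC-DMP minus tissue difference, which stayed at -0.71 while its SE fell from 0.30 to 0.15. Without replicate 3 of both ICC classes ICC-DMP minus tissue did not pass (-0.77, adjusted p = 0.059), and ICC-DMP minus ICC-MY did (-0.92, adjusted p = 0.043).

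Among the atypical enzymes, Prkci, whose protein acts in the polarity complex with PAR6 and PAR3, read 9.57, 9.37 and 9.68 in ICC-DMP, 8.16, 8.83 and 8.78 in ICC-MY, and 9.25 and 10.07 in tunica muscularis. All ICC-MY arrays lay below all others, and ICC-DMP and tissue overlapped. Prkci was lower in ICC-MY than in tissue (-1.07, SE 0.29, 2.10-fold lower, adjusted p = 0.0436), while ICC-DMP minus tissue was -0.12 (SE 0.29, 95% interval -0.79 to 0.54, adjusted p = 0.9). ICC-DMP minus ICC-MY was 0.95 (SE 0.26, 95% interval 0.35 to 1.54, adjusted p = 0.0645), and with the replicate number as a block it passed (0.95, adjusted p = 0.0146).

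The call of Prkci against tissue was lost without any 1 of the 6 ICC arrays (adjusted p = 0.0829, 0.0744 and 0.0703 without ICC-DMP replicates 1, 2 and 3, and 0.0694, 0.0588 and 0.0695 without ICC-MY replicates 1, 2 and 3). Without tunica muscularis replicate 2 it fell further, to -0.66 (adjusted p = 0.246). The other Prkci probe set, 1448695_at, showed no such pattern, with -0.03 for ICC-MY minus tissue (SE 0.17, adjusted p = 0.948) and 0.01 between the ICC classes (SE 0.16, adjusted p = 0.991), and the mean of both probe sets gave -0.55 for ICC-MY minus tissue (adjusted p = 0.0654). The ICC-DMP minus ICC-MY difference of the main Prkci probe set passed without either tissue array (0.95, adjusted p = 0.0298 in both cases), when the tissue no longer adds to the estimate of spread. The smooth muscle markers given with Prkca moved with Prkci too, and all 4 fibroblast markers were below tissue in ICC-MY, with mean levels of 10.24 to 10.43 in ICC-DMP, 9.31 to 9.92 in ICC-MY and 10.68 to 11.61 in tissue. In the other comparisons 1 of the 4 was lower in ICC-DMP than in tissue and 1 was higher in ICC-DMP than in ICC-MY. The part of either set of markers, or of the epithelium markers that differed between the tissue arrays, in the Prkci result was not tested.

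Prkcz, the other atypical enzyme, read 3.38, 3.19 and 3.16 in ICC-DMP, 4.37, 3.45 and 3.33 in ICC-MY, and 4.62 and 4.76 in tunica muscularis. Both tissue arrays lay above all ICC arrays, at levels close to the array medians. Prkcz was lower in ICC-DMP than in tissue (-1.45, SE 0.29, adjusted p = 0.0154), where the ICC-DMP levels, below every array median, were not shown to be above background. ICC-MY minus tissue was -0.98 (SE 0.29, 95% interval -1.66 to -0.30, adjusted p = 0.0654) and ICC-DMP minus ICC-MY was -0.47 (SE 0.26, adjusted p = 0.427). With the replicate number as a block ICC-MY minus tissue passed (-0.86, adjusted p = 0.0444). It passed too with quantile normalization (-1.02, adjusted p = 0.0219), arrays centred on their medians (-1.02, adjusted p = 0.0491) and array weights (-1.20, adjusted p = 0.0201). Without both narrow-range arrays it was -1.38. Over the 17 alternatives with a value ICC-MY minus tissue ran from -1.38 to -0.38, and 11 of them did not pass.

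Prkcz in ICC-DMP failed to pass when leaving out ICC-DMP replicate 2 (adjusted p = 0.0594) or replicate 3 (0.0569) and without tunica muscularis replicate 1 (0.0552) or replicate 2 (0.0734). Without ICC-MY replicate 1, the narrow-range array at 4.37, ICC-MY minus tissue was -1.31 and passed (adjusted p = 0.00124). With the mean of its 3 probe sets ICC-DMP minus tissue was -0.69 (adjusted p = 0.132). The other Prkcz probe sets, 1449692_at and 1454902_at, passed in no comparison and gave -0.07 and -0.09 for ICC-MY minus tissue. The first of them had almost the same mean over the 8 arrays as the main one (3.78 each). The enteric neuron, macrophage and mesothelium markers given with Prkcb moved with Prkcz as well, and their part was not tested.

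**Figure D2:**
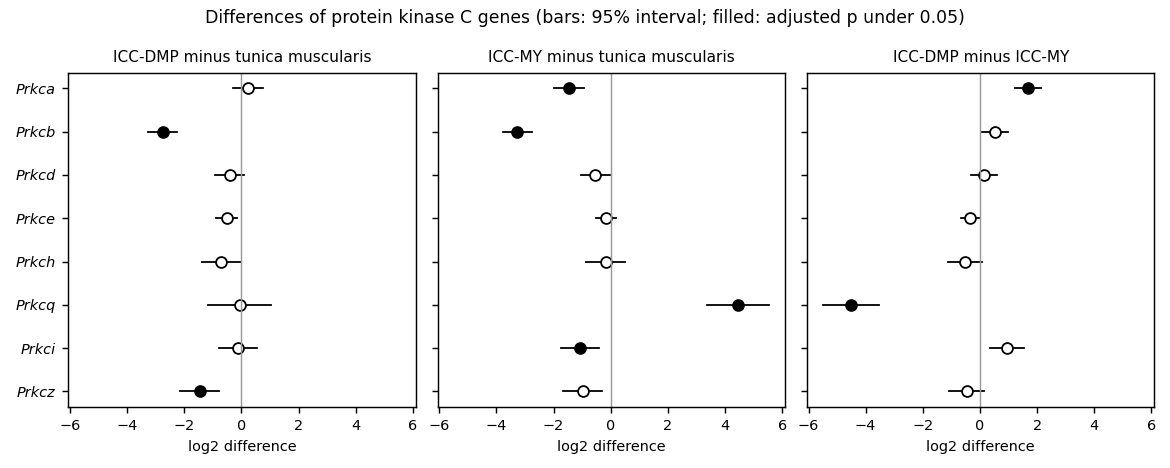
Log2 difference (horizontal axis) of the main probe set of each protein kinase C gene for ICC-DMP minus tunica muscularis, ICC-MY minus tunica muscularis and ICC-DMP minus ICC-MY, with 95% intervals as bars. Filled points passed limma's adjusted p threshold over all genes. The Prkcq interval is centred near 0 in ICC-DMP against tissue, at 4.46 in ICC-MY against tissue and at -4.52 between the ICC classes.

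**Figure D3:**
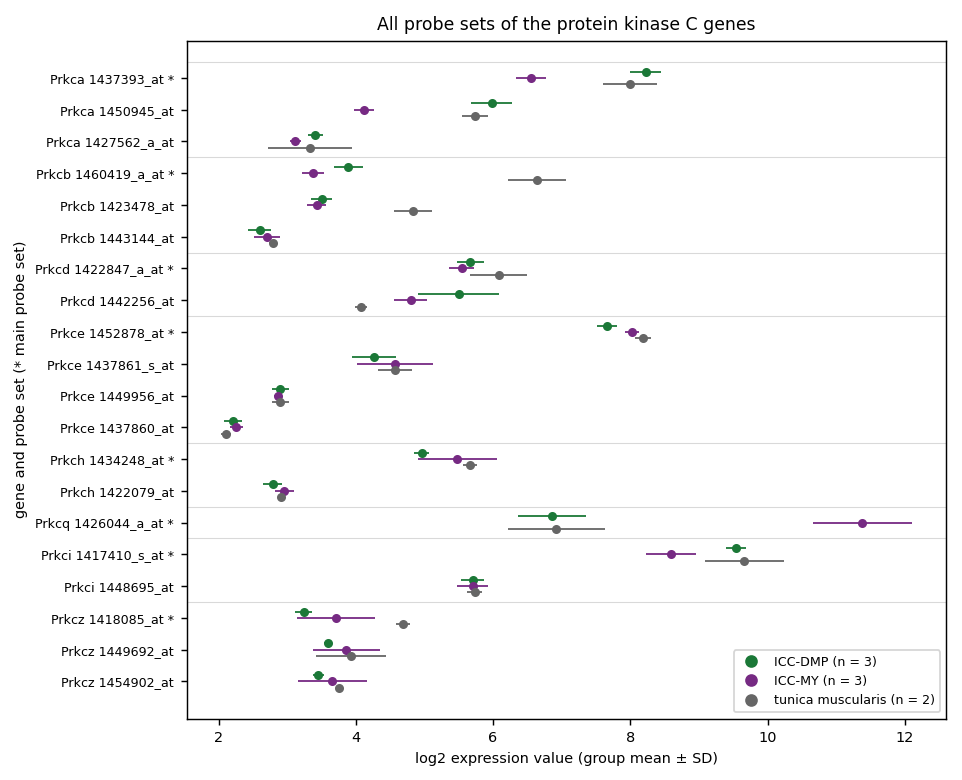
Mean ± SD of the log2 expression value (horizontal axis) for all 20 probe sets of the 8 genes, in ICC-DMP and ICC-MY (n = 3 each) and tunica muscularis (n = 2), with the main probe set of each gene starred. Prkca 1437393_at and 1450945_at share their order of groups, as do Prkcb 1460419_a_at and 1423478_at, while the 2 Prkcd probe sets run in opposite directions against tissue.

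The order of the groups thus differed between members. Prkcq was highest in ICC-MY, with ICC-DMP and tissue not distinguished. Prkca was lowest in ICC-MY, with ICC-DMP and tissue not distinguished. The Prkci arrays had the same order, but only ICC-MY minus tissue passed, by a call that single arrays undo. Prkcb was highest in tissue, with the 2 ICC classes not distinguished by the test. The Prkcz arrays were highest in tissue as well, but only ICC-DMP minus tissue passed in the main fit, again by a call that single arrays undo. ICC-MY minus tissue passed for Prkcz under some of the alternatives. No p-value above the threshold shows that 2 groups had the same level.

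Genes whose values followed those of the members most closely over the 8 arrays were looked for among 1035 genes with an SD of at least 1 over arrays. Genes with RIKEN, Gm, LOC, EST or clone names had been left out of these 1035. The correlations describe 8 arrays in 3 groups, so they mostly reflect the differences between groups. For Prkcq the closest were Icos (r = 0.996), Aldh5a1 (0.994), Slc7a2 (0.994), Spry1 (0.993) and Edn3 (0.992). Icos, a T cell costimulatory receptor gene, read 6.03, 5.99 and 5.63 in ICC-DMP, 10.35, 11.42 and 11.30 in ICC-MY, and 5.44 and 6.66 in tissue. Spry1, a feedback inhibitor of receptor tyrosine kinase signalling, read 7.80, 7.59 and 7.37 in ICC-DMP, 9.94, 10.80 and 10.96 in ICC-MY, and 7.44 and 7.88 in tissue. Edn3, which encodes endothelin 3, read 5.94, 5.91 and 5.05 in ICC-DMP, 8.56, 10.00 and 9.20 in ICC-MY, and 5.59 and 5.63 in tissue. In each of these genes, as in Prkcq, every ICC-MY array lay above every other array.

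For Prkca the closest genes were Esr1 (r = 0.991), the estrogen receptor alpha gene, and Ackr3 (0.989), an atypical chemokine receptor gene. Esr1 read 9.39, 9.24 and 9.10 in ICC-DMP, 5.88, 5.85 and 5.30 in ICC-MY, and 8.29 and 9.00 in tissue. For Prkcb they were Erc2 (0.998), a presynaptic active zone gene, and Nkain2 (0.995), and Erc2 read 3.78, 3.92 and 3.88 in ICC-DMP, 3.46, 2.99 and 3.27 in ICC-MY, and 6.89 and 7.38 in tissue. For Prkci they were Pkdcc (0.984) and Rasl11b (0.975), and for Prkcz Bace2 (0.936) and Fam155a (0.930).

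Genes around the family were taken from 8 lists, of whose 84 entries 75 were measured. Among the related kinases, 5 of 7 were measured. In ICC-DMP against tissue 0 of 5 passed by limma and 1 had an unadjusted p under 0.05, with a median of 0.05. Of the 2 related kinases named by abundance, Prkd3 gave 0.24 there (SE 0.39, adjusted p = 0.847) and Prkd1 gave -0.14 (SE 0.16, adjusted p = 0.744). Prkd1 encodes protein kinase D1, which protein kinase C enzymes phosphorylate and activate. It read 8.62, 8.57 and 8.61 in ICC-DMP, 5.71, 5.89 and 5.71 in ICC-MY, and 8.55 and 8.93 in tissue. The ICC-MY arrays were all far below the others, as for Prkca. Prkd1 was higher in ICC-DMP than in ICC-MY by 2.83 (SE 0.14, adjusted p = 2.77e-05), and ICC-MY minus tissue was -2.97 (SE 0.16, adjusted p = 1.28e-05).

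Of 14 genes for diacylglycerol production, 1 was higher and 1 lower in ICC-DMP than in tissue (median 0.10), 1 was higher and 4 lower in ICC-MY than in tissue (median 0.00), and 2 were higher in ICC-DMP than in ICC-MY (median 0.03). Gna14, a Gq-type G protein alpha subunit gene, read 8.55, 8.74 and 8.47 in ICC-DMP, 3.98, 4.59 and 4.68 in ICC-MY, and 6.04 and 5.96 in tissue. The 3 groups did not overlap. Gna14 was higher in ICC-DMP than in tissue (2.58, SE 0.22, adjusted p = 0.000166), lower in ICC-MY than in tissue (-1.58, SE 0.22, adjusted p = 0.0019) and higher in ICC-DMP than in ICC-MY (4.17, SE 0.20, adjusted p = 2.24e-05). Its ICC-MY levels, near the array medians, were not shown to be above background.

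The phospholipase C beta 1 gene Plcb1 was lower than in tissue in both ICC classes (-2.35, SE 0.28, adjusted p = 0.00101 in ICC-DMP, and -2.93, SE 0.28, adjusted p = 0.000256 in ICC-MY). The phospholipase C epsilon gene Plce1 read 8.12, 8.30 and 8.27 in ICC-DMP, 6.12, 6.28 and 6.45 in ICC-MY, and 8.51 and 9.72 in tissue. It was higher in ICC-DMP than in ICC-MY (1.95, SE 0.28, adjusted p = 0.0031) and lower in ICC-MY than in tissue (-2.83, SE 0.31, adjusted p = 0.000535), as was Plcb4 (-2.69, SE 0.44, adjusted p = 0.00443). With the mean of all probe sets of a gene, Plcb1 gave -0.67 in ICC-DMP (adjusted p = 0.0115) and -0.76 in ICC-MY (adjusted p = 0.00556), and Plcb4 gave -0.84 in ICC-MY (adjusted p = 0.0143). Plcg1, named after its value was seen as the list's sole rise in ICC-MY against tissue, gave 0.67 (SE 0.17, adjusted p = 0.0333). It failed to pass when leaving out ICC-DMP replicate 1 or 3, ICC-MY replicate 2 or 3 or either tissue array (adjusted p = 0.0505 to 0.121), or with the mean of its probe sets (0.26, adjusted p = 0.161).

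Diacylglycerol kinases remove the lipid that activates most of the family. Of 7 measured of 9, 2 were above tissue in ICC-DMP (median 0.17), 1 was higher in ICC-MY than in tissue (median 0.12) and 1 was higher in ICC-DMP than in ICC-MY (median 0.19). Dgka read 6.90, 6.79 and 7.04 in ICC-DMP, 5.63, 5.87 and 5.80 in ICC-MY, and 5.81 and 6.05 in tissue, with every ICC-DMP array above all others. It was higher in ICC-DMP than in tissue (0.98, SE 0.16, adjusted p = 0.00511) and than in ICC-MY (1.14, SE 0.14, adjusted p = 0.0014). Dgkh was higher than in tissue in ICC-DMP (1.18, SE 0.25, adjusted p = 0.019) and in ICC-MY (0.99, SE 0.25, adjusted p = 0.0334). The first Dgkh difference failed to pass when leaving out ICC-DMP replicate 1 or 2 or tunica muscularis replicate 1 (adjusted p = 0.066, 0.0776 and 0.0998), and the second without any 1 ICC-DMP array, ICC-MY replicate 2 or 3 or tunica muscularis replicate 1 (adjusted p = 0.0551 to 0.173, with 0.63 without that tissue array). The mean of its probe sets gave 0.62 in ICC-DMP (adjusted p = 0.0141) and 0.50 in ICC-MY (adjusted p = 0.0317).

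The other C1-domain proteins bind diacylglycerol without being protein kinase C enzymes. Of 10, 4 were below tissue in ICC-DMP (median -0.47), 1 was higher and 1 lower in ICC-MY than in tissue (median -0.02), and 2 were lower in ICC-DMP than in ICC-MY (median -0.39). Chn2, a Rac-inactivating chimaerin gene, read 6.12, 6.10 and 5.80 in ICC-DMP, 8.92, 9.35 and 8.88 in ICC-MY, and 6.22 and 6.56 in tissue. Like Prkcq it was highest on all ICC-MY arrays, with -3.05 for ICC-DMP minus ICC-MY (SE 0.18, adjusted p = 4.57e-05) and 2.66 for ICC-MY minus tissue (SE 0.20, adjusted p = 7.31e-05). Rasgrp3, a Ras activator gene, read 5.37, 5.75 and 5.13 in ICC-DMP, 7.13, 7.16 and 7.74 in ICC-MY, and 6.91 and 7.31 in tissue. It was lower in ICC-DMP than in tissue (-1.70, SE 0.26, adjusted p = 0.00387) and than in ICC-MY (-1.93, SE 0.23, adjusted p = 0.00122), and with the mean of its probe sets by more (-3.11, adjusted p = 9.34e-05, and -3.02, adjusted p = 8.75e-05).

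The synaptic vesicle priming gene Unc13c was lower than in tissue in ICC-DMP (-1.89, SE 0.18, adjusted p = 0.000317) and in ICC-MY (-1.94, SE 0.18, adjusted p = 0.000234). Its relative Unc13a was lower in ICC-DMP (-0.88, SE 0.19, adjusted p = 0.022), as was Rasgrp2 (-1.24, SE 0.29, adjusted p = 0.0301). Unc13a failed to pass when leaving out ICC-DMP replicate 2 or 3 or tunica muscularis replicate 1 (adjusted p = 0.0861, 0.0697 and 0.126). Rasgrp2 failed to pass when leaving out ICC-DMP replicate 1 or 2, ICC-MY replicate 2 or either tissue array (adjusted p = 0.05 to 0.128), or with the mean of its probe sets (-0.61, adjusted p = 0.0573). For Unc13c that mean gave -0.83 in ICC-DMP (adjusted p = 0.00472) and -0.86 in ICC-MY (adjusted p = 0.0034). The ICC levels of Unc13c and the ICC-DMP levels of Unc13a, below every array median, were not shown to be above background.

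Priming kinases and phosphatases set the phosphorylation that a protein kinase C enzyme needs to mature. Of 6 measured of 7, 1 was higher in each comparison, with medians of 0.03 for ICC-DMP minus tissue, 0.15 for ICC-MY minus tissue and -0.16 for ICC-DMP minus ICC-MY. Rictor, a subunit of the mTOR complex that phosphorylates these enzymes, read 7.19, 6.77 and 7.32 in ICC-DMP, 7.22, 7.52 and 6.94 in ICC-MY, and 4.58 and 5.17 in tissue. All ICC arrays lay above both tissue arrays, and Rictor was higher in ICC-DMP (2.21, SE 0.26, adjusted p = 0.000925) and in ICC-MY (2.35, SE 0.26, adjusted p = 0.000542, or 1.20 with the mean of its probe sets, adjusted p = 0.00134). The phosphatase gene Phlpp2 was higher in ICC-DMP than in ICC-MY (1.03, SE 0.26, adjusted p = 0.0488), a call lost without any 1 array other than ICC-MY replicate 3 (adjusted p = 0.0507 to 0.175) and with the mean of its probe sets (0.51, adjusted p = 0.0835).

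Of 13 measured of 14 substrates and anchoring proteins, 4 were below tissue in ICC-DMP (median -0.41), 1 was higher and 4 lower in ICC-MY than in tissue (median -0.56), and 1 was lower in ICC-DMP than in ICC-MY (median 0.02). Gap43, a neuronal growth cone protein and a classical substrate, read 3.55, 3.40 and 2.99 in ICC-DMP, 3.40, 2.87 and 3.22 in ICC-MY, and 7.59 and 7.86 in tissue. It was lower in ICC-DMP (-4.41, SE 0.23, adjusted p = 1.03e-05) and in ICC-MY (-4.56, SE 0.23, adjusted p = 8.03e-06). Its levels in both ICC classes, below every array median, were not shown to be above background. Akap5, which anchors protein kinases A and C, was lower in both as well (-1.81, SE 0.20, adjusted p = 0.000654 in ICC-DMP, and -1.19, SE 0.20, adjusted p = 0.00474 in ICC-MY). So was the adducin gene Add2 (-1.59, SE 0.22, adjusted p = 0.00204 in ICC-DMP, and -1.42, SE 0.22, adjusted p = 0.00306 in ICC-MY). With the mean of all probe sets of a gene, Add2 gave -0.51 in ICC-DMP (adjusted p = 0.0471) and did not pass in ICC-MY (-0.43, adjusted p = 0.0792), and Akap5 gave -1.16 and -0.79 (adjusted p = 0.00178 and 0.01). The neuron marker levels given with Prkcb moved with Gap43 too, and their part was not tested.

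Add3 was lower in ICC-DMP than in tissue (-1.70, SE 0.38, adjusted p = 0.0242), a call lost without any 1 ICC-DMP array or tunica muscularis replicate 2 (adjusted p = 0.0759, 0.0572, 0.0853 and 0.123). Cavin3, a caveolar protein that binds protein kinase C delta, was lower in ICC-MY than in tissue (-1.72, SE 0.28, adjusted p = 0.00438). Nrgn, the neurogranin gene, read 4.35, 4.21 and 3.94 in ICC-DMP, 5.50, 5.12 and 5.45 in ICC-MY, and 4.76 and 4.10 in tissue. It was lower in ICC-DMP than in ICC-MY (-1.19, SE 0.21, adjusted p = 0.00908). Its ICC-DMP and tissue levels, near the array medians, were not shown to be above background. Named after its value was seen, the same gene was the sole rise of the list in ICC-MY against tissue (0.93, SE 0.24, adjusted p = 0.034), lost without ICC-DMP replicate 1 or 2, ICC-MY replicate 1 or 3 or tunica muscularis replicate 2 (adjusted p = 0.0577 to 0.196, with 0.60 without that tissue array).

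Of 9 measured of 12 partners of protein kinase C theta known from T cells, 1 was higher and 1 lower in ICC-DMP than in tissue (median -0.02), 1 was higher and 1 lower in ICC-MY than in tissue (median 0.07), and 1 was higher and 2 lower in ICC-DMP than in ICC-MY (median -0.15). Icos, given above with Prkcq, was lower in ICC-DMP than in ICC-MY (-5.14, SE 0.37, adjusted p = 9.86e-05) and higher in ICC-MY than in tissue (4.97, SE 0.42, adjusted p = 0.000121). Malt1, the protease that acts downstream of theta in NF-kappaB activation, had a difference between the ICC classes of opposite sign to that of Prkcq. It read 5.57, 5.54 and 5.51 in ICC-DMP, 3.89, 3.49 and 3.29 in ICC-MY, and 3.01 and 3.38 in tissue, with the ICC-DMP arrays above all others. Malt1 was higher in ICC-DMP than in tissue (2.35, SE 0.21, adjusted p = 0.000183) and than in ICC-MY (1.99, SE 0.18, adjusted p = 0.000304), and ICC-MY minus tissue was 0.36 (SE 0.21, adjusted p = 0.354). The mean of its probe sets gave 1.33 for ICC-DMP minus tissue (adjusted p = 0.00136). The ICC-MY and tissue levels of Malt1, below every array median, were not shown to be above background.

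Card10, a scaffold for the same pathway outside lymphocytes, read 5.42, 5.24 and 5.50 in ICC-DMP, 6.08, 6.31 and 6.39 in ICC-MY, and 7.55 and 6.80 in tissue, with no overlap between groups. It was lower in ICC-DMP than in tissue (-1.78, SE 0.23, adjusted p = 0.00155) and than in ICC-MY (-0.87, SE 0.21, adjusted p = 0.036), and lower in ICC-MY than in tissue (-0.91, SE 0.23, adjusted p = 0.0333). The call between the ICC classes was lost without any 1 ICC-DMP array or ICC-MY replicate 2 or 3 (adjusted p = 0.0858 to 0.152). That of ICC-MY against tissue was lost without any 1 ICC array (adjusted p = 0.0563 to 0.0746) or tunica muscularis replicate 1 (-0.54, adjusted p = 0.156), and with both narrow-range arrays left out (-0.45, adjusted p = 0.153).

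Of 11 polarity partners of the atypical enzymes, 2 were higher and 2 lower in ICC-DMP than in tissue (median 0.09), 2 were below tissue in ICC-MY (median -0.02), and 2 were higher in ICC-DMP than in ICC-MY (median 0.18). The PAR6 genes, whose proteins bind the atypical enzymes directly, did not move together. Pard6b read 3.92, 4.29 and 3.65 in ICC-DMP, 3.04, 3.46 and 3.44 in ICC-MY, and 6.44 and 6.76 in tissue, and was lower in ICC-DMP (-2.64, SE 0.23, adjusted p = 0.000182) and in ICC-MY (-3.28, SE 0.23, adjusted p = 4.67e-05). Its ICC levels, near or below the array medians, were not shown to be above background. Pard6g read 9.32, 9.06 and 9.44 in ICC-DMP, 7.18, 7.52 and 8.04 in ICC-MY, and 8.03 and 8.33 in tissue. It was higher in ICC-DMP than in ICC-MY (1.69, SE 0.23, adjusted p = 0.00234) and than in tissue (1.10, SE 0.26, adjusted p = 0.0298), and the call against tissue was lost without any 1 ICC-DMP or tissue array (adjusted p = 0.0574 to 0.155). The mean of its probe sets gave 0.94 (adjusted p = 0.00587) and 0.62 (adjusted p = 0.0495).

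Wwc1, which encodes the zeta-binding protein KIBRA, read 6.79, 6.63 and 7.03 in ICC-DMP, 4.84, 5.26 and 5.43 in ICC-MY, and 8.27 and 8.10 in tissue, and the 3 groups did not overlap. It was lower than in tissue in ICC-DMP (-1.37, SE 0.21, adjusted p = 0.00395) and in ICC-MY (-3.01, SE 0.21, adjusted p = 4.61e-05), and higher in ICC-DMP than in ICC-MY (1.64, SE 0.19, adjusted p = 0.000947). The mean of its probe sets gave -0.80 (adjusted p = 0.00342), -1.33 (adjusted p = 0.000221) and 0.53 (adjusted p = 0.0188) in the same order. Pard3, the PAR3 gene, was higher in ICC-DMP than in tissue by 0.77 (SE 0.20, adjusted p = 0.0419). That call was lost without any 1 ICC-DMP array, ICC-MY replicate 2 or 3 or tunica muscularis replicate 1 (adjusted p = 0.0567 to 0.227), and the mean of its probe sets gave 0.44 (adjusted p = 0.0254).

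**Figure D4:**
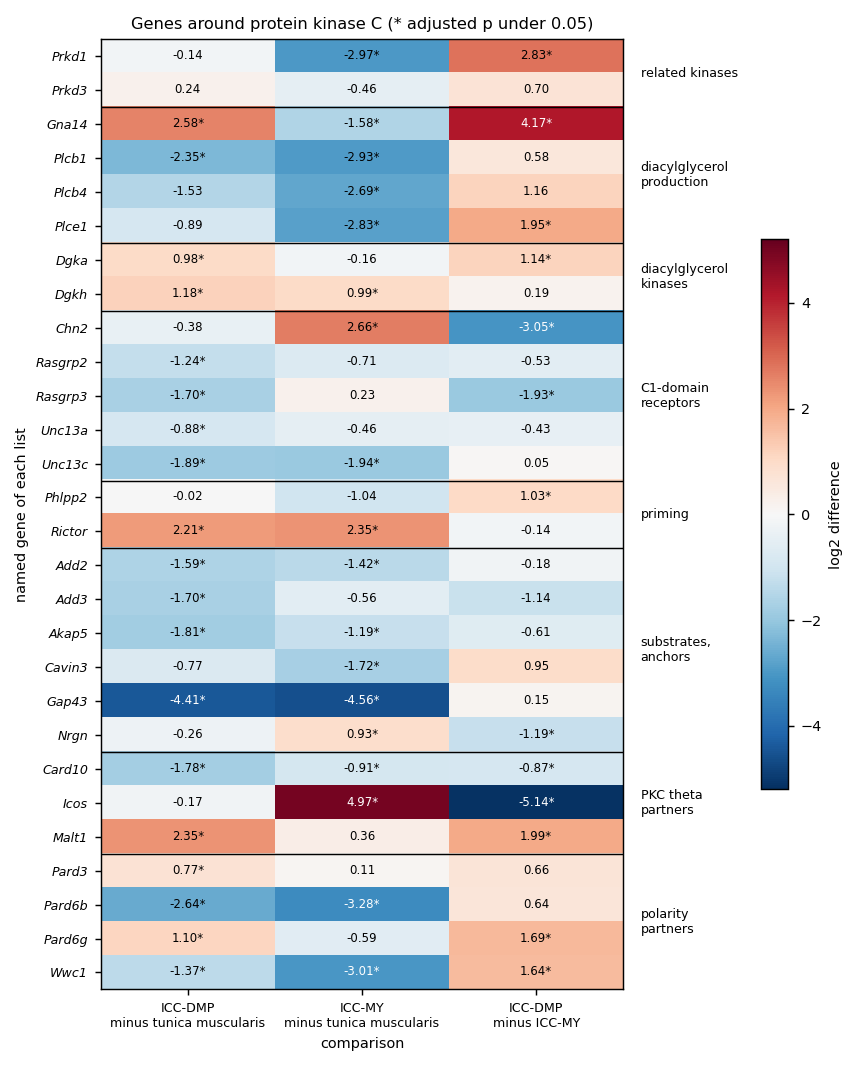
Log2 difference of the named genes of the 8 lists (rows) in the 3 comparisons (columns), with red for higher and blue for lower in the group named first, and a star where limma's adjusted p was under 0.05. The largest differences between the ICC classes were those of Icos (-5.14) and Gna14 (4.17), and against tissue those of Icos in ICC-MY (4.97) and Gap43 in both ICC classes (-4.41 and -4.56).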

How the data were processed

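The authors deposited log2 expression values of 8 arrays as a series table. RMA and limma are named, without their roles or versions, per the submitters' processing notes. The table held 45101 probe sets; 64 controls were left out, 34945 named 1 gene, 932 named several and 9160 are unnamed here. The values were used as deposited. For each of 18193 genes the probe set with the highest mean was fitted in limma 3.58.1 (R 4.3.3) with 3 groups, 5 residual degrees of freedom and Benjamini-Hochberg adjustment. The fit was also run on simulated data with independent arrays. That run cannot show how the fit behaves with correlated same-numbered arrays or arrays of narrow range. The members and lists were chosen with earlier results of these data known. Named from each list were up to 4 genes with the largest differences among those called per comparison, or the 2 most abundant where none was, and for likeness the closest 5 (Prkcq) or 2. The main fit leaves out replicate numbers. A fit with them as a block is given where it changes a call of a member, or of a list gene in the comparison it was named for. It was run since deviations from group means correlated between every same-numbered pair (0.289, 0.5 and 0.387 between ICC classes, 0.155 to 0.608 with tissue). With 2 tissue arrays those deviations mirror each other, and no label says what the numbers share. The 18 alternatives cover probe set choice, scaling, a filter on dim genes, the groups fitted, blocks, weights and left-out arrays.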

Additional observations from a re-analysis of the deposited data

Results flagged for a closer look

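The 2 ICC classes differed from tunica muscularis by different amounts for 15 of the named genes, by the limma test of ICC-DMP minus ICC-MY itself. Most list genes were named because they were called in a comparison, this one among them, so the count is no test. Over all genes 8.67% were called in that comparison. The calls of Phlpp2 and Card10 are among those that single arrays undo. Lower in ICC-DMP than in ICC-MY were Icos (-5.14), Prkcq (-4.52), Chn2 (-3.05), Rasgrp3 (-1.93), Nrgn (-1.19) and Card10 (-0.87). Higher in ICC-DMP than in ICC-MY were Gna14 (4.17), Prkd1 (2.83), Malt1 (1.99), Plce1 (1.95), Pard6g (1.69), Prkca (1.67), Wwc1 (1.64), Dgka (1.14) and Phlpp2 (1.03). The groups hold 2 or 3 arrays, too few to look for a single array far from its group.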

How the results depend on the processing

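Of the member results over the alternatives, 373 kept their direction and their side of the threshold, 18 lost a call, 20 gained one and 12 changed sign; no called member changed sign. Prkcq and Prkca in ICC-DMP minus ICC-MY and in ICC-MY minus tissue, and Prkcb against tissue, kept their calls wherever they were tested. The number of members called in ICC-DMP minus tissue (2) became 1 with the mean of all probe sets and 1 without replicate 3 of both ICC classes, an alternative chosen after seeing the data. It became 0 with dim genes left out, which removes Prkcb, Prkch and Prkcz from the test. Leaving out 1 array gave 1 to 3. In ICC-DMP minus ICC-MY the count of 2 became 4 after quantile normalization and 4 without the 2 narrow-range arrays, while calls over all genes rose to 2557 and 2630, against 1577. Leaving out 1 array gave 2 to 3. In ICC-MY minus tissue leaving out 1 array gave 3 to 4 against 4. With the replicate block the counts were 2, 5 and 3, while calls over all genes rose to 2853, 3537 and 2617, against 2009, 2516 and 1577. Apart from those of Prkcz and Prkci given in the report, the block changed no call of a member. Nor did it change that of a list gene in the comparison it was named for. Other comparisons of the list genes were not checked under the block. Signs changed, all for differences that did not pass, in ICC-DMP minus tissue for Prkca (-0.05 without tunica muscularis replicate 1, alone or with the other narrow-range array), Prkcd (0.51 with the mean of probe sets), Prkci (0.29 without tunica muscularis replicate 2), Prkd1 (0.05 without that array) and Prkd3 (-0.29 without tunica muscularis replicate 1, alone or with the other narrow-range array). Prkcq there gave 0.05 with the block and with array weights, 0.23 without ICC-DMP replicate 3 and without replicate 3 of both ICC classes, and 0.44 without tunica muscularis replicate 2. Leaving out 1 array gave ranges of -0.05 to 0.50 for Prkca, -0.57 to 0.44 for Prkcq, -0.53 to 0.29 for Prkci, -0.33 to 0.05 for Prkd1 and -0.29 to 0.76 for Prkd3. In ICC-MY minus tissue Prkcd gave 0.09 with the mean of probe sets and Prkch 0.15 without ICC-MY replicate 3 and without replicate 3 of both classes, and -0.38 to 0.15 over the left-out arrays. Beyond what the settings themselves remove, the cause was not tested. The share of called genes that were higher in ICC-DMP than in ICC-MY was 61.9%, and 50.1% after quantile normalization.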
